A study of Mus musculus with 2 samples.

Results

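The genes described here are the ligands, receptors, adaptors and feedback or target genes of fibroblast growth factor (FGF) signalling in the embryonic mouse forebrain. They were chosen by symbol, with no measured value in the rule, from a list of 39 genes. Of these, 38 were found among the 42442 annotated mouse genes of the deposited tables (22 ligands, 5 receptors, 2 adaptors and 9 feedback or target genes), and Spry3 was not analysed here. Total RNA from the forebrain of embryos of the B6NCrl strain at embryonic day 13.5 was sequenced in 2 libraries that form 1 group. The tissue was pooled from male and female embryos, no treatment or altered allele is named, and 10 ng of RNA longer than 200 bases, with spike-in RNA added, went into a library. The labels call the libraries biological replicates and give both the same donor code. With 1 group of 2 libraries no condition can be compared, so no p-value is given, and errors are SDs of the 2 libraries (n = 2).

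FGF ligands are secreted proteins that bind receptor tyrosine kinases at the cell surface together with heparan sulfate. The activated receptor phosphorylates the docking protein Frs2, which passes the signal to Ras and the MAP kinases, and the ETS factors Etv1, Etv4 and Etv5 and the inhibitors of the Sprouty, Spred and Dusp families are switched on in turn. In the forebrain, Fgf8 and its relatives at the rostral midline pattern the cortex from front to back, and FGF receptors keep cortical progenitors dividing. A separate branch of the family (Fgf11 to Fgf14) stays inside the cell, where its members bind voltage-gated sodium channels and, for Fgf13, microtubules.

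Sequencing depth was 35378462 estimated counts in replicate 1 and 36793284 in replicate 2. All 7 telencephalon markers, among them Emx1 (65.3 and 68.5 TPM in replicates 1 and 2), were at 1 TPM or more in both libraries. TPM is a level relative to all transcripts of a library and corrected for gene length, so it can be compared between genes. None of 10 markers of the midbrain, isthmus and hindbrain reached 1 TPM in either library, with summed levels of 0.35 and 0.33 TPM, and Hoxb1 had no count. The 6 choroid plexus markers summed to 480 TPM in replicate 1 and 253 in replicate 2, and the 5 diencephalon markers to 153 and 229 TPM, so the libraries differed in these markers. In dissected tissue, fewer cells of a type and less RNA per cell cannot be told apart.

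Fgfr1, Fgfr2 and Fgfr3 can each code the second part of the third immunoglobulin (Ig) loop, which contacts the ligand, from either of 2 alternative exons called IIIb and IIIc. The choice sets which ligands a receptor binds: IIIb forms are typical of epithelia, and IIIc forms of mesenchyme and neural tissue. The pair of Fgfr3, the most abundant receptor, is shown as an example of the exons that the receptor results turn on. It was read from the GENCODE M21 transcripts (GRCm38, the same assembly as mm10), 5′ to 3′ on the coding strand. Capitals mark runs of at least 5 bases that are identical in an alignment of the IIIb and the IIIc exon.
Fgfr3 IIIb: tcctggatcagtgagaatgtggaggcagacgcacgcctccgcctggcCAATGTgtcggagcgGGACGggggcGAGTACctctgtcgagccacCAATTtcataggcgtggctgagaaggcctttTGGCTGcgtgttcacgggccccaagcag
Fgfr3 IIIc: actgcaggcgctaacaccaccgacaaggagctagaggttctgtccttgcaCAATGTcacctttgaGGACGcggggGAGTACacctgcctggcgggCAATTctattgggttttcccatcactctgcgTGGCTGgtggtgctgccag
The exons lie at chr5:33731281-33731431 (IIIb, 151 bases) and chr5:33732117-33732261 (IIIc, 145 bases) on the plus strand. They were identical in 81 of 160 alignment columns (50.6%), so reads from either exon differ at many positions.

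FGF signalling genes were unevenly present. Of the 38 members, 25 reached 1 TPM in both libraries, beside 59.0% of all 21460 protein-coding genes of the nuclear genome. By class these were 10 of 22 ligands, 4 of 5 receptors, both adaptors and all 9 feedback or target genes. The median level was 0.745 ± 0.198 TPM for ligands (SD of the library medians, n = 2), 27.4 ± 0.424 TPM for receptors and 6.67 ± 1.36 TPM for feedback and target genes. On the log2(TPM + 1) scale the median receptor stood 4.04 ± 0.18 above the median ligand and the median feedback or target gene 2.26 ± 0.079 above it. These differences describe lists of unequal size, and the ligand list holds many genes known for other tissues or stages. The ligand list also holds the 4 intracellular genes Fgf11 to Fgf14, all present. Without them the ligand median was 0.32 ± 0.251 TPM, and 6 of 18 were present.

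**Figure D1:**
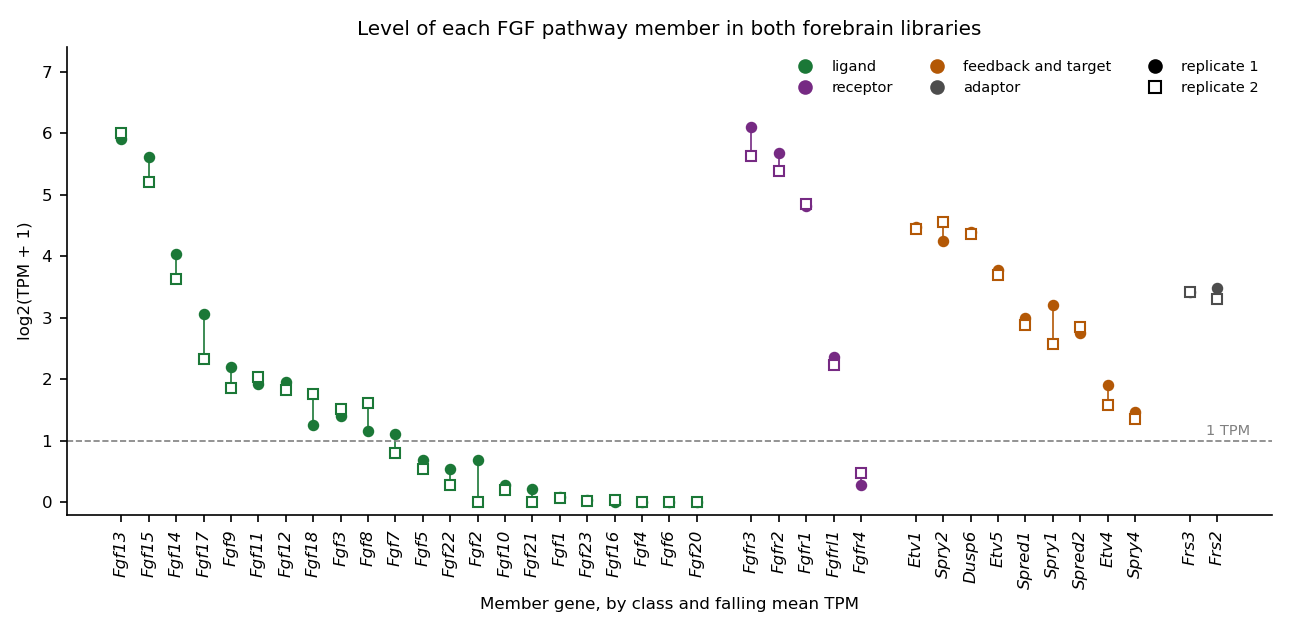
Level of each of the 38 members as log2(TPM + 1), filled circles for replicate 1 and open squares for replicate 2, with a line joining them and a dashed line at 1 TPM. Fgf13, Fgf15 and Fgf14 stand above the other ligands, Fgfr3, Fgfr2 and Fgfr1 above Fgfrl1 and Fgfr4, and 13 members lie below 1 TPM in at least 1 library.

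Ordered by mean TPM, the members ran from Fgf13 through Fgfr3, Fgfr2, Fgf15 and Fgfr1 to Etv1, Spry2 and Dusp6, and ended, among the 25 present, with Spry4 and Fgf8. Of the 24 pairs of neighbours in this order, 18 had overlapping library values and 6 did not. The separated pairs were Fgf15 over Fgfr1, Fgfr1 over Etv1, Dusp6 over Fgf14, Etv5 over Frs3, Frs2 over Spred1 and Fgfrl1 over Fgf9. With 2 libraries each, a separated pair is a description and not a test.

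Among the secreted ligands, Fgf15 was far above the rest. Fgf15 (chromosome 7, 144896531 to 144900953, plus strand), a ligand of the hormone-like subfamily that is expressed in the embryonic brain, measured 48.1 TPM in replicate 1 and 35.9 in replicate 2 (mean 41.95 ± 8.63). It made up 71.6 ± 0.85% of the summed TPM of the 18 secreted ligands, a share that was close in both libraries (72.2% and 71.0%) although the level was 1.33-fold higher in replicate 1 on the TPM + 1 scale. The tables list an antisense gene, Gm26793, whose exons overlap those of Fgf15, at 4.21 and 3.81 TPM. The strand setting of the counting is not stated in the labels or file headers, so reads of the pair may not be separated.

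Fgf8, Fgf17 and Fgf18 form the subfamily of the rostral patterning centre, and all 3 were present. Fgf17 measured 7.34 and 4.05 TPM (259 and 156 counts). Fgf18 measured 1.38 and 2.38 TPM (29 and 57 counts). Fgf8 measured 1.23 and 2.05 TPM (26 and 37 counts). Fgf17 was the highest of the 3 in both libraries but was lower in replicate 2, where Fgf8 and Fgf18 were higher, and the summed level of the subfamily was 9.95 and 8.48 TPM. Sp8, a transcription factor of the same patterning centre, differed little, at 13.9 and 13.3 TPM.

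The other secreted ligands at 1 TPM or more in both libraries were Fgf9 and Fgf3. Fgf9, a ligand made by neural progenitors and neurons, measured 3.57 and 2.61 TPM from nearly equal counts (128 and 130). The tables divide Fgf9 between 4 transcripts of different length, and the share of Fgf9-202 was 46.9% in replicate 1 and 23.0% in replicate 2. Fgf3 measured 1.64 and 1.86 TPM.

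The remaining 12 ligands, all secreted, did not reach 1 TPM in both libraries. Fgf7, a ligand of IIIb receptors, lay nearest the threshold, with 1.15 and 0.75 TPM. Fgf5 followed with 0.62 and 0.46 TPM, and Fgf22 with 0.46 and 0.21 TPM. Fgf10, another ligand of IIIb receptors, was listed at 0.22 and 0.15 TPM (20 and 15 counts). These levels rest on few reads: Fgf22 had 4 and 2 counts, Fgf1 had 5 and 4, and Fgf2, Fgf16, Fgf21 and Fgf23 had at most 3 in any library.

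Fgf2, a ligand with a known role in cortical progenitors, had 3 counts (0.61 TPM) in replicate 1 and none in replicate 2. A count of 0 allows 3 counts, which are 0.244 TPM with the effective length listed for replicate 2 and 0.605 TPM with that of replicate 1. Its exons overlap Nudt6 on the opposite strand, which measured 3.30 and 2.58 TPM. Fgf4, Fgf6 and Fgf20 had no count in either library. A count of 0 allows up to 0.046 TPM for Fgf4, 0.119 for Fgf6 and 0.145 for Fgf20 in replicate 1, and these limits cover counting error only. The exons of Fgf20 overlap the abundant gene Micu3 (21.9 and 21.6 TPM) on the opposite strand.

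The intracellular branch was complete and held the member with the highest mean. Fgf13 (chromosome X, 59062145 to 59568071, minus strand) measured 59.2 and 63.1 TPM (mean 61.1 ± 2.75) and made up 44.3 ± 5.64% of the summed TPM of all 22 ligands. Its range overlapped that of Fgfr3, which was above it in replicate 1. Fgf14 followed with 15.3 and 11.3 TPM, Fgf11 with 2.78 and 3.12 TPM, and Fgf12 with 2.88 and 2.53 TPM. Together the 4 genes summed to 80.2 and 80.0 TPM, more than the 66.5 and 50.5 TPM of all 18 secreted ligands in the same libraries.

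Fgf13 is read from several start sites that give the protein different beginnings. Grouping its 9 transcripts by starts within 1000 bases, the group farthest upstream (5 transcripts, starts between 59567472 and 59568071) summed to 34.1 and 31.3 TPM, 53.6 ± 5.61% of the gene. The middle start (Fgf13-202, 59166164) measured 12.4 and 20.8 TPM. The start farthest downstream among those used (Fgf13-201, 59134436) measured 12.7 and 10.9 TPM, and 2 further transcripts were listed at 0. The upstream group led in both libraries. The middle and downstream starts changed order between the libraries. Within the upstream group the transcript estimates were less stable: Fgf13-203 held 29.3% of the gene in replicate 1 and 15.9% in replicate 2.

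**Figure D2:**
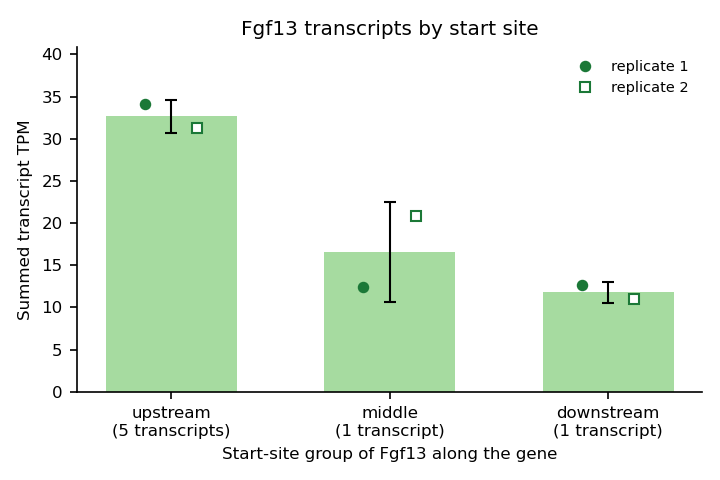
Summed transcript TPM of the 3 used start-site groups of Fgf13, ordered along the direction of transcription, with bars for the mean, whiskers for the SD of 2 libraries and points for each library. The upstream group is highest in both libraries, and the middle start is the one with the widest gap between libraries (12.4 and 20.8 TPM).

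RefSeq promoter windows (GRCm38.p6, 250 bases before to 50 after the start) lie within 1000 bases of each of the 3 used start groups. They are shown because the starts differ in level and in CpG content, and capitals mark the 50 bases from the RefSeq start onward. The RefSeq starts of the upstream and middle windows (59567348 and 59166088) lie downstream of the starts of the measured transcripts. Lower-case bases of these windows can therefore also be transcribed. The windows are chrX:59567299-59567598 (upstream), chrX:59166039-59166338 (middle) and chrX:59134387-59134686 (downstream), all on the minus strand.
Fgf13 upstream: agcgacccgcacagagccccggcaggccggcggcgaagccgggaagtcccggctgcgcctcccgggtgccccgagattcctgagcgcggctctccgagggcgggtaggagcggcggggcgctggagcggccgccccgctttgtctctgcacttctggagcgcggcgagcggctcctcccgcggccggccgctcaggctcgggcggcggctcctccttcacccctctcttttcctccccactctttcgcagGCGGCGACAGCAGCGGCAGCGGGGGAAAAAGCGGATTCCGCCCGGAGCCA
Fgf13 middle: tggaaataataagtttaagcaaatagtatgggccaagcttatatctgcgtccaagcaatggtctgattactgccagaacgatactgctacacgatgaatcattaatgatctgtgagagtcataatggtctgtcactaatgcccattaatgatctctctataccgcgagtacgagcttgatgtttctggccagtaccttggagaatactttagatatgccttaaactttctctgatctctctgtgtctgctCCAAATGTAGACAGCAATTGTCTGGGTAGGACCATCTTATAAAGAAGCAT
Fgf13 downstream: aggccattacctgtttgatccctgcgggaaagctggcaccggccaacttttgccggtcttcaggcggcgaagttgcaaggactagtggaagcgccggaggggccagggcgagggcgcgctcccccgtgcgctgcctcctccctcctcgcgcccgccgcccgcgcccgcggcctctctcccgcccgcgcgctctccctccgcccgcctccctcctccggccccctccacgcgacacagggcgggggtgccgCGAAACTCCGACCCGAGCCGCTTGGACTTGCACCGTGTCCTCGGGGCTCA
The upstream window holds 40 CpG dinucleotides, the downstream window 37 and the middle window 6, against a median of 7 over all 32851 windows. The library values of the middle start (12.4 and 20.8 TPM) overlapped those of the CpG-rich downstream one (12.7 and 10.9 TPM). A further RefSeq window of Fgf13, with 3 CpG dinucleotides, matched no transcript in the tables.

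Of the 38 members, 29 had a RefSeq promoter window. Taking each gene's most CpG-rich window, the 19 members at 1 TPM or more had a median of 28 CpG dinucleotides (4 to 47) and the 10 others a median of 14.5 (6 to 29), with a median of 8 over all 27025 genes that have a window. The counts of the groups overlap widely. Fgfr2 was the present member with the fewest (4), and Fgf5 and Fgf4 were the absent members with the most (29 and 28). Except for Fgf13, the windows were not matched to the starts of the measured transcripts.

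The receptors had the highest median of the classes. Fgfr3 (chromosome 5, 33721724 to 33737068, plus strand), which marks dividing cells of the ventricular zone, measured 67.6 and 48.3 TPM. Fgfr2 measured 50.1 and 40.8 TPM. Fgfr1 (chromosome 8, 25513654 to 25575718, plus strand) measured 27.1 and 27.7 TPM. Fgfr3 was highest and Fgfr1 lowest of these 3 in each library, although the ranges of Fgfr3 and Fgfr2 overlapped between libraries. Fgfrl1, a receptor without a kinase domain, measured 4.14 and 3.69 TPM. Fgfr4 lay below 1 TPM in both libraries, with 0.21 and 0.39 TPM (15 and 19 counts).

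Of the summed TPM of Fgfr1 to Fgfr4, Fgfr3 held 43.9 ± 3.84%, Fgfr2 34.7 ± 0.208%, Fgfr1 21.2 ± 3.50% and Fgfr4 0.239 ± 0.133%. The Fgfr2 value includes a transcript model that does not begin in Fgfr2. Fgfr2-217, the most abundant Fgfr2 transcript in the tables (15.1 and 13.4 TPM), spans 2960900 bases, and 2 of its 7 exons overlap exons of Ctbp2, a transcriptional corepressor gene at 88.8 and 85.2 TPM. Its other 5 exons are the last exons of Fgfr2, so it holds neither IIIb nor IIIc. Of its 2425 bases, only 314 lie in the 2 exons that overlap Ctbp2. How its 781 and 756 estimated counts divide between reads of Ctbp2 and reads of Fgfr2 cannot be told apart in these tables. Without this model Fgfr2 stood at 35.0 and 27.4 TPM, and its share of the receptors was 26.7 ± 0.364%. In replicate 2 it then lay below Fgfr1 (27.7 TPM), so only the lead of Fgfr3 held in both libraries with and without the model. Leaving out the model also removes any reads that it took from the shared Fgfr2 exons. The values without it may therefore be too low for Fgfr2.

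Of the transcripts that hold exactly 1 of the alternative exons, the IIIc form prevailed in all 3 receptors. In Fgfr3 the IIIc transcripts summed to 52.8 and 39.7 TPM and the IIIb transcripts to 5.78 and 3.32 TPM, a IIIc share of 91.2 ± 1.52%. In Fgfr2 the IIIc transcripts summed to 19.9 and 16.4 TPM and the IIIb transcripts to 4.53 and 4.03 TPM, a IIIc share of 80.8 ± 0.81%. In Fgfr1 the IIIc transcripts summed to 19.5 and 20.9 TPM, and both IIIb transcripts were listed at 0. Another Fgfr1 transcript, Fgfr1-208, holds both exons and is outside this share, at 0.75 and 0.73 TPM. The IIIb share was thus highest in Fgfr2, with 18.6% and 19.7% in the 2 libraries, above the 9.87% and 7.71% of Fgfr3. Posterior mean values, the second TPM estimate in the tables, put the Fgfr1 IIIc share at 98.0%.

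**Figure D3:**
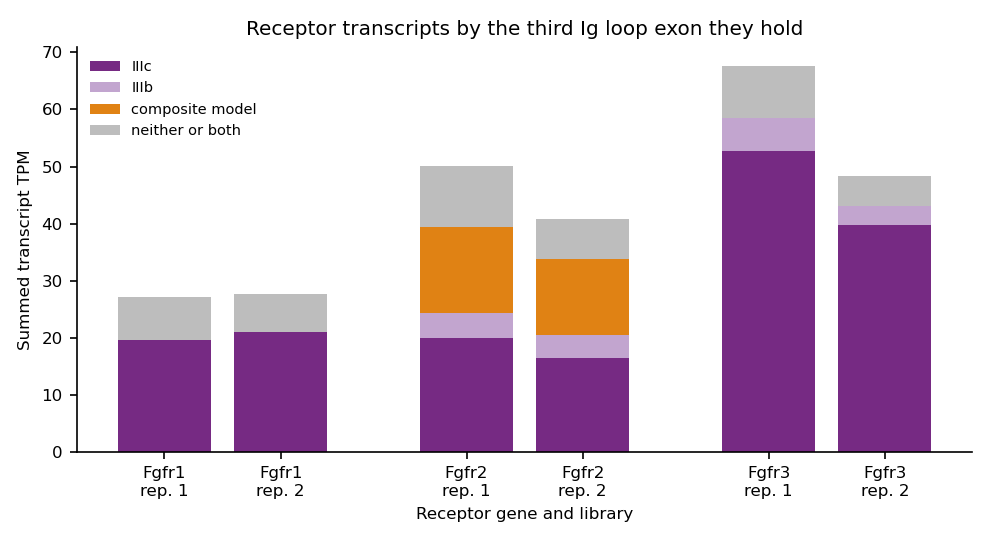
Summed TPM of the transcripts of Fgfr1, Fgfr2 and Fgfr3 in each library, stacked by whether they hold the IIIc exon, the IIIb exon, neither or both, with the composite model Fgfr2-217 shown apart. IIIc is the largest part of each bar, and the IIIb part is visible in Fgfr2 and Fgfr3 but not in Fgfr1.

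Much of the receptor signal lies in transcripts that do not tell the forms apart. Transcripts with neither exon held 23.5 ± 2.35% of Fgfr1, 50.7 ± 0.963% of Fgfr2 and 12.05 ± 1.77% of Fgfr3, and they include transcripts with a retained intron and short models. Transcripts classed as protein-coding held 73.8 ± 2.44% of Fgfr1, 80.8 ± 2.87% of Fgfr2 and 85.1 ± 1.35% of Fgfr3. Both Fgfr2 values include the composite model Fgfr2-217, classed as protein-coding, which held 30.1% and 32.8% of the gene in the libraries. In Fgfr1 a retained-intron transcript, Fgfr1-206, alone held 18.9% and 15.9%. The libraries were made from total RNA, and the part of unspliced RNA in these shares was not tested.

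Further exons of the receptors were examined after the transcripts had been seen. The exon for the first Ig loop, which dampens ligand binding, was present in 82.95 ± 7.17% of the TPM of protein-coding Fgfr1 transcripts that hold IIIb or IIIc, in 29.7 ± 3.08% of those of Fgfr2 and in 100% of those of Fgfr3. The longer form was thus the major one for Fgfr1 and Fgfr3 and the minor one for Fgfr2 in both libraries. In Fgfr2 the exon after the Ig III exons, which covers the membrane-spanning part, has 2 ends that differ by 6 bases, giving 203 or 197 bases. Its last 30 bases at chr7:130196172-130196201 (minus strand) are shown with the 6 optional bases in capitals.
Fgfr2 exon end: aagcgcatccccctgcggagacagGTAACA
Transcripts with the longer end held 52.6% and 47.3% of the Fgfr2 TPM in this class, so neither end led in both libraries. These shares depend on how the quantification divided reads between overlapping models.

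Both docking proteins were present at similar levels. Frs2 measured 10.2 and 8.90 TPM, and Frs3, its relative in neural tissue, measured 9.73 and 9.66 TPM. Their library values overlapped.

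All 9 feedback and target genes were at 1 TPM or more in both libraries. The ETS factors, direct readouts of the pathway, ran from Etv1 (21.4 and 20.7 TPM) over Etv5 (12.7 and 11.9 TPM) to Etv4 (2.76 and 2.00 TPM). The order of the 3 was the same in both libraries with no overlap. Dusp6, a phosphatase that switches off ERK, measured 20.1 and 19.5 TPM. Etv1 and Dusp6 were among the members that differed least between the libraries, with log2 ratios of -0.05 each (replicate 2 over replicate 1, TPM + 1).

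The Sprouty inhibitors ranged widely. Spry2 measured 18.0 and 22.5 TPM. Spry1 measured 8.27 and 4.98 TPM. Spry4 measured 1.78 and 1.57 TPM. Spry2 was the highest Sprouty gene in both libraries, and it was higher in replicate 2 where Spry1 was lower. The related inhibitors Spred1 (6.98 and 6.35 TPM) and Spred2 (5.76 and 6.17 TPM) lay close together, and the order of the pair was kept in both libraries.

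Beyond the receptors and Fgf13, 6 members present in both libraries had several transcripts of which none held 60% of the gene on average. Spred2 was divided evenly between Spred2-201 (50.7% and 49.4%) and Spred2-202 (49.3% and 48.7%). In Etv1, Etv1-203 held 30.0% and 30.8% of the gene and Etv1-201 22.4% and 32.3%, so the leading transcript changed between libraries. In Etv4 the leading transcript Etv4-201 held 40.2% and 49.0%. Fgf11-201 held 44.2% and 58.8% of Fgf11, and here too the lead changed. Fgf8-203 was listed at 0 in replicate 1 and held 53.7% of Fgf8 in replicate 2, where the whole gene had 37 counts. Fgf9 is described above. Of the other present members, 7 have a single transcript in the tables, among them Fgf15, Fgf17, Spry2 and Dusp6. Their gene level does not rest on a division between transcripts of the same gene. The expected counts of Fgf15 were not whole (1826.52 and 1485.9), so its reads may have been divided with those of other genes.

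Some members are neighbours on the genome. Fgf3, Fgf4 and Fgf15 lie within chr7:144838083-144900953, with 16949 bases between Fgf3 and Fgf4 and 31287 between Fgf4 and Fgf15. Their mean levels in that order were 1.75, 0 and 41.95 TPM, so the gene without a count lies between both others. Fgf6 and Fgf23 are 44714 bases apart on chromosome 6, and neither reached 1 TPM. Fgf2 and Spry1 are 234569 bases apart on chromosome 3 (mean 0.305 and 6.63 TPM), and Fgf1 and Spry4 are 237257 bases apart on chromosome 18 (mean 0.055 and 1.68 TPM). In both of these pairs the ligand was below 1 TPM and the Sprouty gene above it.

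Of 70 other genes that carry, modify or answer the signal, 65 were at 1 TPM or more in both libraries. That is 92.9%, beside 59.0% of all protein-coding genes of the nuclear genome. All 25 signal relay genes were present. The kinase genes Map2k2 (176 and 162 TPM) and Araf (157 and 137 TPM) were highest and the exchange factor gene Sos1 was lowest, at 5.22 and 5.27 TPM. Of the 14 other response genes and ETS regulators 13 were present, with the cyclin gene Ccnd1 (108 and 88.6 TPM), the phosphatase gene Dusp4 (60.9 and 49.8 TPM) and the repressor gene Cic (38.4 and 38.5 TPM) highest and Fos lowest at 0.93 and 0.95 TPM.

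Heparan sulfate, which FGF needs to bind its receptors, was covered by 23 genes of its synthesis and its carrier proteins, of which 21 were present. The highest were the glypicans Gpc2 (135 and 110 TPM) and Gpc1 (98.5 and 94.1 TPM) and the carrier Agrn (89.9 and 75.0 TPM), and Hs6st3 was lowest at 0.21 and 0.28 TPM. Of 8 co-receptors and extracellular modulators 6 were present (75%, beside 59.0% of all protein-coding genes). Flrt3, a membrane protein that binds FGF receptors, measured 49.1 and 39.4 TPM, Fgfbp3, which releases FGF from the matrix, 21.4 and 21.5 TPM, and Flrt2 19.6 and 20.6 TPM. The co-receptors that hormone-like FGFs use in adult tissues were the 2 genes not present: Klb at 0.05 and 0.02 TPM, the lowest, and Kl at 0.17 and 0.13 TPM. Their low level stands beside the high level of the hormone-like ligand Fgf15.

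**Figure D4:**
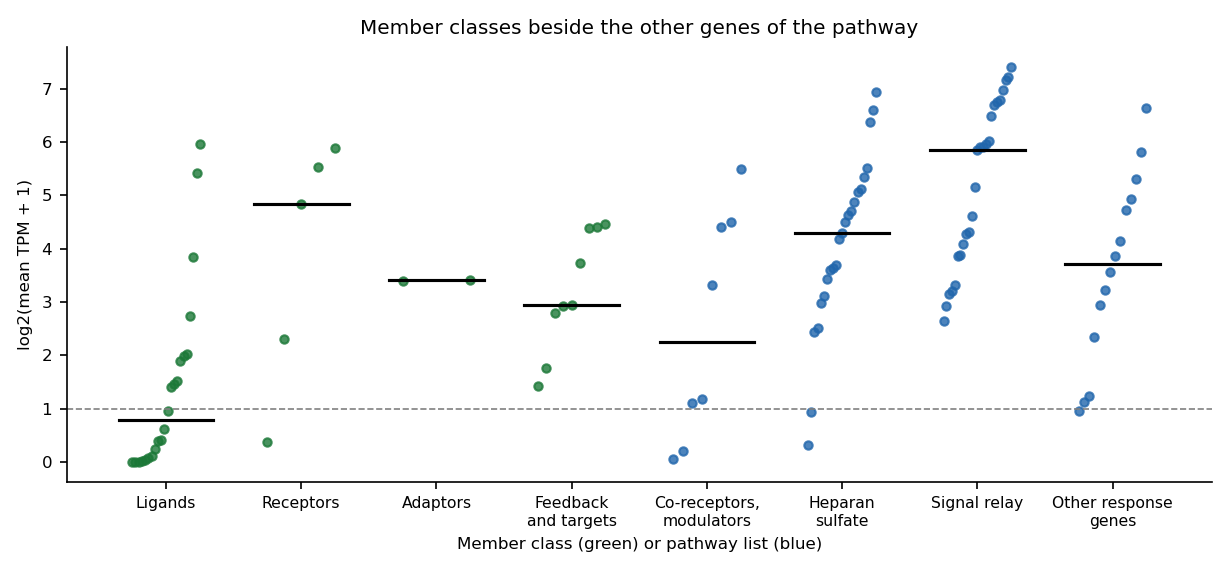
Mean TPM over both libraries, as log2(mean TPM + 1), of each gene in the 4 member classes (green) and the 4 lists of other pathway genes (blue), with a bar at the median and a dashed line at 1 TPM. Ligands are the only set whose median lies below 1 TPM (0.745 TPM), and all 25 signal relay genes lie above the line.

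The libraries were compared for the 29 members whose expected counts averaged 10 or more. The median log2 ratio of replicate 2 over replicate 1 was -0.11, beside -0.10 over all 17297 genes at that minimum, and 20 of the 29 were higher in replicate 1 (69.0%, beside 71.9% of all genes). Members past 1.5-fold on the TPM + 1 scale were Fgf17 (1.65-fold) and Spry1 (1.55-fold), both higher in replicate 1. That is 2 of 29, or 6.90%, beside 2.78% of all genes, made up of 2.12% that were higher in replicate 1 and 0.659% with the higher value in replicate 2. A count of 2 is too small to set the members apart from other genes. With 1 library on each side these ratios have no replicate check.

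**Figure D5:**
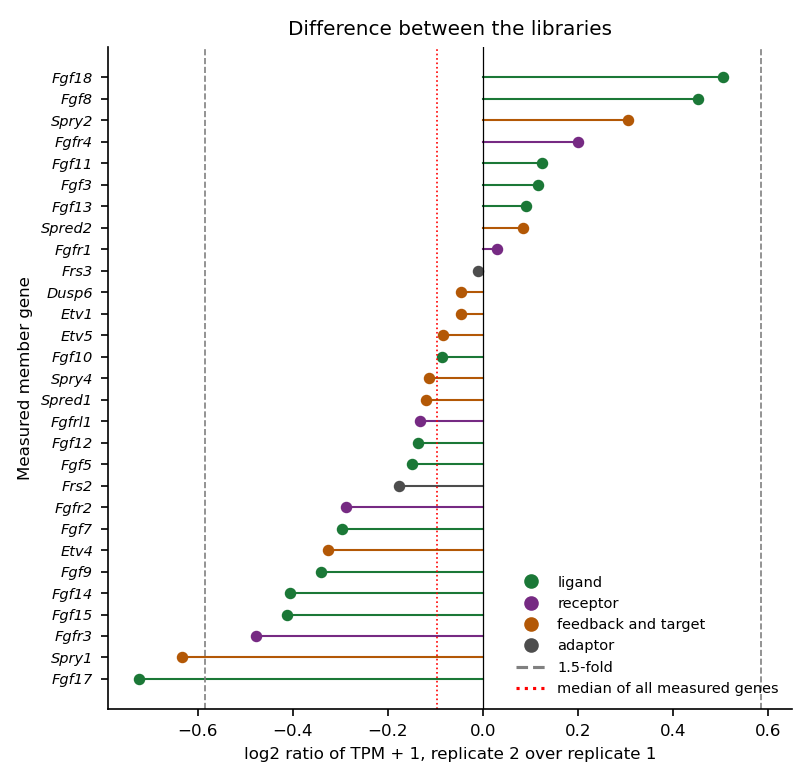
The log2 ratio of TPM + 1, replicate 2 over replicate 1, for the 29 measured members, coloured by class, with dashed lines at 1.5-fold and a dotted line at the median of all measured genes (-0.10). Fgf17 and Spry1 lie past the line on the side of replicate 1, and Fgf18 and Fgf8 reach farthest on the side of replicate 2 without passing it.

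Beside these differences stand those of the choroid plexus markers, of which 6 of 6 were higher in replicate 1 (median log2 ratio -0.61), and of the diencephalon markers, of which 4 of 5 were higher in replicate 2 (median 0.59). Markers of the surface and olfactory ectoderm (4 of 4, median -0.33) and of erythroid cells (4 of 4, median -0.25) were also higher in replicate 1, and those of the septum and preoptic area (3 of 4, median 0.25) in replicate 2. Of the other pathway genes, 59 of 68 measured were higher in replicate 1 (median log2 ratio -0.11, beside 71.9% and -0.10 for all genes): 20 of 22 heparan sulfate genes (median -0.24), 23 of 25 relay genes (-0.11), 12 of 14 response genes (-0.07) and 4 of 7 co-receptors and modulators (-0.05). The heparan sulfate gene Sulf1, which trims the sulfate groups and was singled out after its values were seen, measured 24.1 and 13.3 TPM. The 6 radial progenitor markers had a median log2 ratio of 0.00, with 3 higher in each library. The part of these tissues in the differences of Fgf17, Spry1, Fgf8 or Fgf18 was not tested.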

How the data were processed

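Total RNA was measured in 2 forebrain libraries. Per the labels' protocols the RNA was extracted with a mirVana kit, and a manual for low-input cDNA is linked there. The assembly was mm10 with GENCODE M4, per the metadata deposited with the files. For the aligner, the quantifier's version and the strand setting, the sources used here give nothing. Expected counts, deposited by the authors, estimate the reads of each gene or transcript and divide shared reads, and 33 of 38 members had whole counts (within 0.005) in both libraries. TPM was computed by the authors over every row, with spike-ins (4.48% and 6.06% of TPM), with a second column of posterior means. The deposited percent column gives each transcript's share of its gene, which was recomputed here from TPM.

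Symbols and coordinates came from GENCODE M21 (GRCm38) by identifier, where 42462 of 43346 mouse genes matched. Spans and start sites use the M21 transcripts that the tables hold, and the composite Fgfr2 model was left out of the span. Exon overlaps with other genes were found for 9 members. IIIb and IIIc are the adjacent, mutually exclusive coding exons of 140 to 155 bases. Promoter windows are from RefSeq (GRCm38.p6) and matched 29 of 38 members. They did not cover Fgf1, Fgf8, Fgf15, Fgf16, Fgf17, Fgf20, Fgfr1, Spry4 and Etv4.

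The unit of replication is the library. Values are means with the SD of 2 libraries, and a gene is present at 1 TPM or more in both. The ratio between libraries uses TPM + 1 for genes whose expected counts average 10 or more, a fold of 1.5 and a floor of 3 counts for a count of 0. Rounded counts were scaled with edgeR 4.0.16 (TMM) and by the size factors of DESeq2 1.42.0 as alternatives (R 4.3.3). Python 3.11.15 with pandas 2.3.3 and numpy 2.4.6 did the rest, with alignments by Biopython 1.88. The fold calls were also run on simulated counts with counting error only, so that run does not cover variation between libraries. Alternatives changed the scaling, the threshold, the filter, the pseudocount, the estimate or the summary, or left out 1 library.

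The rule for the members uses no measured value, but the members and lists were chosen with earlier results of these data known. By the naming rule, members present in both libraries are given with both values, each pathway list by its 3 highest and its lowest gene (with some items not reported here), isoforms for the receptors and for members whose leading transcript holds under 60%, and member pairs within 1000000 bases. Kl, Gm26793, Nudt6, Micu3, Ctbp2, Sulf1 and the named markers were added after their values were seen.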

Additional observations from a re-analysis of the deposited data

How the results depend on the processing

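The 16 summary results were recomputed under 86 alternatives. Of these, 66 stayed within the spread between libraries or within 1.5 times a count, 20 moved further and none changed sign. For the class differences and the shares, leaving out 1 library could not pass the spread, because the main value is the mean of both libraries. Counts, levels and shares cannot be negative, so only the class differences and the ratio between libraries could have changed sign. The number of members present was 25 to 26 over the alternatives that kept the 1 TPM threshold, 26 at 0.5 TPM and 21 at 2 TPM. With posterior mean TPM the ligand median was 1.02 TPM, the receptor median 28.2 TPM, the log2 difference of feedback and target genes over ligands 2.02, and the IIIc shares 98.0% for Fgfr1 and 78.5% for Fgfr2. TPM recomputed over protein-coding genes of the nuclear genome gave medians of 34.1 TPM for receptors and 8.29 TPM for feedback and target genes. Leaving out each library, the median of feedback and target genes ranged from 6.35 to 8.27 TPM. A pseudocount of 0.1 widened the log2 differences over ligands to 5.09 (receptors) and 3.18 (feedback and target genes), and means in place of medians narrowed them to 2.37 and 1.79. With expected counts not divided by length, Fgfr2 held 27.3% and Fgfr3 48.2% of the receptors, and the Fgfr2 IIIc share was 85.7%. An alternative chosen after the data were seen, leaving out the composite Fgfr2 model, gave 26.7% for Fgfr2 and 49.3% for Fgfr3.

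Between the libraries, 7 members differed by 1.3-fold or more (5 higher in replicate 1, beside 9.39% of all genes) and 0 by 2-fold (beside 0.503%). With a pseudocount of 0.1, 5 members were past 1.5-fold (beside 9.50% of all genes), of which Fgf8, Fgf18 and Fgfr4 were higher in replicate 2. Under TMM-scaled and DESeq2-scaled counts Fgf18, higher in replicate 2, joined Fgf17 and Spry1. That makes 3 of 29 members, beside 9.28% and 9.27% of all genes. Over all genes the median log2 ratio came to 0.00 under each scaling, against -0.10 on the TPM + 1 scale. Both scalings are built to centre most genes near 0, so a median of 0.00 follows from the method. Calls over all genes were 366 higher in replicate 1 to 114 higher in replicate 2 on the TPM + 1 scale and 996 to 609 under TMM. Fgf17 and Spry1 were past 1.5-fold and higher in replicate 1 under every scaling, filter, pseudocount and estimate tried, at the fold of 1.5. The causes of these shifts were not tested. No paired analysis was possible because there is only 1 group. Low counts limit several ligands: Fgf22, Fgf1, Fgf2, Fgf16, Fgf21 and Fgf23 had 5 counts or fewer in each library.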
